A study of Homo sapiens with 17 samples.

Results

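Histone genes were examined in polyadenylated RNA of K562, an established line of human leukaemia cells with erythroid features. The members were the protein-coding genes whose symbols begin with HIST1H, HIST2H, HIST3H, HIST4H, H1F, H2AF or H3F in GENCODE 29. This rule gave 87 of 19951 protein-coding genes: 71 clustered histone genes (HIST symbols, 55 on chromosome 6, 15 on chromosome 1 and 1 on chromosome 12) and 16 genes of replacement variants, which are spread over 11 chromosomes. The clustered genes were 6 H1, 17 H2A, 18 H2B, 15 H3 and 15 H4 genes, and the replacement genes were 4 H1, 9 H2A and 3 H3 genes.

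Per the labels, all cells had received CRISPR plasmids for gene activation by electroporation, then an antisense oligonucleotide that is not named, and were harvested on day 6. There were 17 libraries. The GOLGA8N group held GOLGA8N 1, GOLGA8N 2 and 23-GOLGA8N, and the LAPTM4B group held LAPTM4B 1, LAPTM4B 2 and 22-LAPTM4B. The reference group held Neg, RFP and GFP, whose plasmid labels name no human gene. The labels TTR, TRPC5OS, E7, ADORA2A, UBE2V1, COL6A6, 20-ARSF and 21-CTPS2 had 1 library each. The 4 labels that begin with a number (prefixed) were also set against the 13 that do not (unprefixed). What the prefixes, Neg and E7 stand for is not said, nor whether libraries of 1 group are separate cultures. The p-values therefore cover the spread between libraries alone, and that spread may be technical.

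Replication-dependent histone mRNAs, made from the clustered genes in S phase, normally end just after a conserved stem-loop that is bound by SLBP, and carry no poly(A) tail. Polyadenylated forms of some of them are known from differentiated and cancer cells, where transcription runs past the stem-loop to a poly(A) signal. Replacement variants such as H3.3 and H2A.Z are made outside S phase as well, from ordinary polyadenylated mRNAs. The libraries here were primed with oligo-dT, so they record poly(A)-tailed ends and transcripts with internal runs of A, and do not measure the tail-less histone mRNA.

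GFP was the shallowest library with 569057 estimated reads, and the other 16 held 2252097 to 4236396. A floor of 3 reads was 5.46 CPM (counts scaled to a total of 1000000 reads in genes) in GFP and at most 1.38 CPM in the other libraries. GFP stood apart, with Spearman correlations of 0.764 to 0.79 with the other libraries over 8929 genes, against 0.849 to 0.914 among the others, so medians are given with or without it as stated. No pair of libraries looked like 1 library deposited again. Of the 15 erythroid markers, 14 had a median of at least 10 CPM (summed level 6948 to 12921 CPM), against 1 of 9 T lymphocyte, 0 of 7 B lymphocyte, 1 of 7 fibroblast and 3 of 6 epithelial markers; the labels call the cells lymphoblasts. Of the targeted genes, GOLGA8N had 0.692 estimated reads in its own 3 libraries together, TTR stood at 11.7 CPM in its own library against at most 1.15 elsewhere, and UBE2V1 at 129 against at most 124. CTPS2 stood at 15.98 CPM in its own library against up to 18.3 elsewhere, LAPTM4B had a mean of 189 CPM in its own 3 libraries against 227 in the others, and ADORA2A, COL6A6, ARSF and TRPC5OS had 0 reads in their own libraries. In bulk RNA, fewer cells that express a gene and less RNA per cell cannot be told apart.

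Clustered histone genes supplied a small share of the reads, concentrated in few genes. Their summed level was 933 ± 204 CPM (SD, n = 17), from 628 in GOLGA8N 1 to 1290 in 21-CTPS2, or 0.0628% to 0.129% of the reads in genes. Replacement genes summed to 2207 ± 187 CPM (SD, n = 17), from 1862 in 22-LAPTM4B to 2528 in LAPTM4B 2. Of the 71 clustered genes, 56 had reads and 15 had none in any library, among them HIST1H1A, HIST1H1T, HIST1H2BA and HIST3H3. In 36 clustered genes a transcript model has no 3′ UTR, and it is the only model of HIST1H1A and HIST1H2BA. A tag lying wholly past the stop codon has no place in such a model, so absent or few reads do not show that a gene was silent. Only 16 clustered genes reached a median of 10 CPM over the 16 libraries without GFP, while 11 had a median of 1 to 10 CPM and 29 lay below 1 CPM. Of the 16 replacement genes, 12 had reads and 7 reached 10 CPM. The linker histone gene HIST1H1C alone held 30.6% to 46.0% of the clustered reads, and with the H2A pair HIST2H2AA3 and HIST2H2AA4 46.3% to 62.9%. By type, H1 genes held 38.9% of all clustered reads, H2A genes 27.1%, H2B genes 17.9%, H4 genes 12.1% and H3 genes 4.02%.

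**Figure D1:**
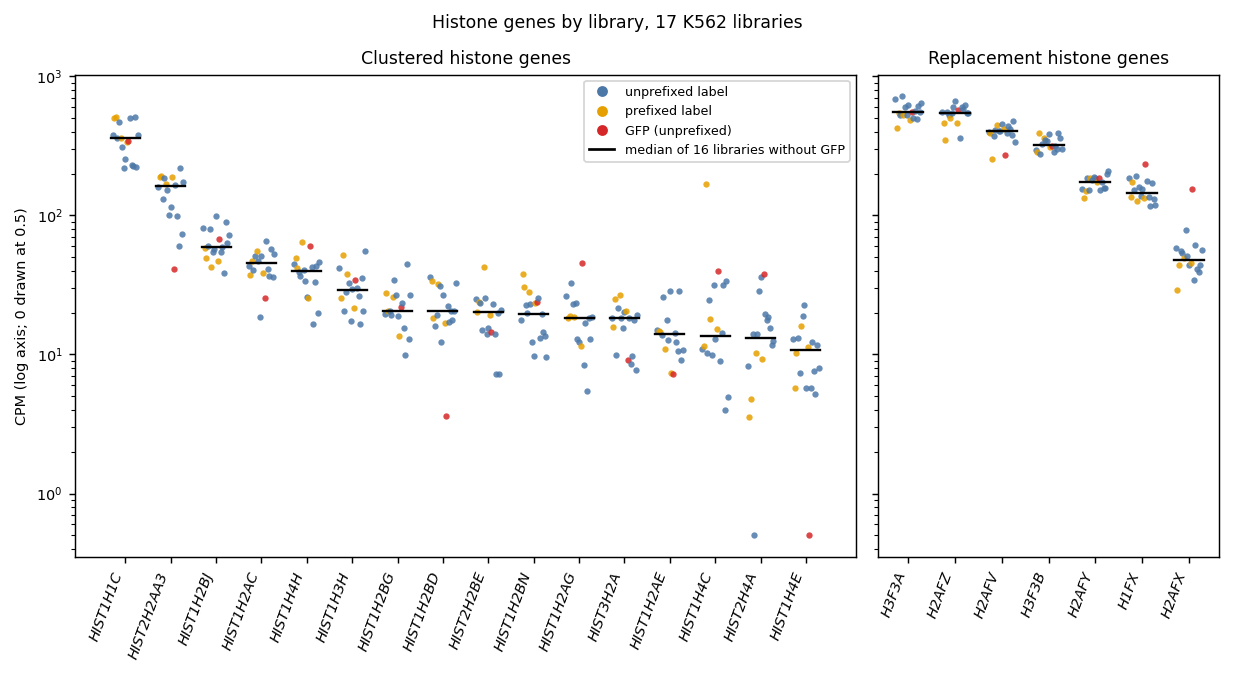
Level of each histone gene with a median of at least 10 CPM over the 16 libraries without GFP, in CPM on a log axis, with 1 point per library and values of 0 drawn at 0.5. Bars are medians of those 16 libraries: HIST1H1C stands near 361 CPM, most other clustered genes lie between 10 and 60 CPM, the 7 replacement genes lie between 47.5 and 550 CPM, and the HIST1H4C point at 169 CPM is 21-CTPS2.

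Single genes were also ordered by the deposited TPM, which divides by transcript length. Because tags come from 3′ ends and do not scale with length, this order is approximate. Over the 16 libraries without GFP the median was 319 TPM for H2AFV, 273 for H2AFZ, 260 for HIST1H1C and 207 for H3F3A. It was 149 for HIST2H2AA3, 84.5 for H3F3B and 54.3 for HIST1H2BJ. The clustered H1 gene HIST1H1C thus held the third place among all 87 members on this scale. Its only model, of 642 bases, has no 3′ UTR, so this place depends on the annotated length. By median CPM over the same libraries H3F3A had rank 1 and HIST1H1C rank 4. HIST2H2AA3 has a near-identical copy, so its own value is uncertain.

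The annotated 3′ ends of the transcripts that received the reads were read next. The stem-loop was searched as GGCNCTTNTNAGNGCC, on both strands. It occurred on the transcript strand in 69 of 205269 GENCODE 29 transcripts (0.0336%), from 48 genes of which 33 were members, and on the other strand in 9 (0.00438%). A poly(A) signal, AATAAA or ATTAAA, began in the last 50 bases of 31.3% of all transcripts. These matches describe the models and are not shown to be used sites. The stem-loops of 5 clustered genes at 10 CPM or more, of HIST1H4J, whose model ends there, and of H2AFX are shown 5′ to 3′ on the transcript strand (GENCODE 29, GRCh38), with the 16 bases of the motif in capitals and 5 bases on each side.
HIST2H2AA3 (chr1:149842218-149842243, minus strand): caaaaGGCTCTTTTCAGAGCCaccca
HIST2H2BE (chr1:149886183-149886208, minus strand): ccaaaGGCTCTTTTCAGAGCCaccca
HIST1H2AC (chr6:26124664-26124689, plus strand): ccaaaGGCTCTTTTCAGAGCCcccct
HIST1H3H (chr6:27810511-27810536, plus strand): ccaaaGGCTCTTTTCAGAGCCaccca
HIST1H4H (chr6:26285126-26285151, minus strand): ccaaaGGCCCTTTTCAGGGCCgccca
HIST1H4J (chr6:27824454-27824479, plus strand): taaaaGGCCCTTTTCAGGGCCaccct
H2AFX (chr11:119094893-119094918, minus strand): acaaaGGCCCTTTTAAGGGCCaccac
The clustered H2A, H2B and H3 genes shown share 1 motif sequence, both H4 genes share another, and that of H2AFX differs from both.

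For the 16 clustered genes at 10 CPM or more, the leading model is the transcript model with the largest share of the gene's reads. It ran past the stem-loop in 11 genes. It had another end without the motif in 4 genes (HIST1H2BJ, HIST1H2BN, HIST1H2BD and HIST1H4C) and no 3′ UTR in 1 gene (HIST1H1C). Its share was 47.6% in HIST1H4H and 52.2% in HIST1H2AC, where another model, without the motif, held 43.7%. The leading models of HIST1H2AC, HIST1H4H and HIST2H4A are annotated as nonsense-mediated decay transcripts. Past the stem-loop the models continued for 35 bases in HIST2H2AA3, 51 in HIST1H2AE, 390 in HIST3H2A, 769 in HIST1H3H, 1128 in HIST1H2AC and 1761 in HIST1H2AG. The last 30 bases of 2 of these models, with the poly(A) signal in capitals, are set beside those of the most read replacement genes and the window around the signal of H2AFX.
HIST2H2AA3 (chr1:149842188-149842217, minus strand): cgttttcaAATAAAagagttgttaatgctg
HIST2H2BE (chr1:149884459-149884488, minus strand): gttattAATAAAgttaccaattaatttaaa
H3F3A (chr1:226071970-226071999, plus strand): tgtaagtttgctattaaaatacATTAAAct
H2AFZ (chr4:99948088-99948117, minus strand): ggataagttcAATAAAggtcatatcccaaa
H2AFX (chr11:119093873-119093902, minus strand): ttttATTAAAggattgttttttttttaaat
The signal began 22 bases before the end of the HIST2H2AA3 model, 24 before that of HIST2H2BE, 20 before that of H2AFZ, 8 before that of H3F3A and 45 before that of H2AFX. The H3F3A window holds another copy of its signal, further upstream and in lower case.

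Clustered histone reads lay mostly in models that do not end at the stem-loop, but few annotated models end there. Only 5 clustered models did, 2 of them with reads. Another 41 ran past it, 36 had no 3′ UTR and 18 had another end without the motif. The shares below therefore depend on which models are annotated. Models that run past it held 42.7% ± 4.46 of the clustered reads (SD over libraries, n = 17), from 35.9% to 49.8%, and 87.0% of those reads were in models with a poly(A) signal. Models that end within 10 bases of the stem-loop held 0.864% ± 0.580 (SD, n = 17), nearly all from HIST1H4J, an H4 gene with 359 reads whose model ends 6 bases after the stem-loop. That model also holds a poly(A) signal, which begins 29 bases before the end and thus before the stem-loop. How reads divide between HIST1H4J and HIST1H4K, whose model has no 3′ UTR, is uncertain, as given below. Models with no annotated 3′ UTR held 39.5% ± 4.22 (SD, n = 17), because all 18046 reads of HIST1H1C fell in its only model, and other ends held 16.96% ± 3.39 (SD, n = 17). Without HIST1H1C, models that run past the stem-loop held 68.95% ± 5.64 of the clustered reads (SD, n = 17). Which end the RNA itself had is not measured by these sums, since reads were assigned to whole models.

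**Figure D2:**
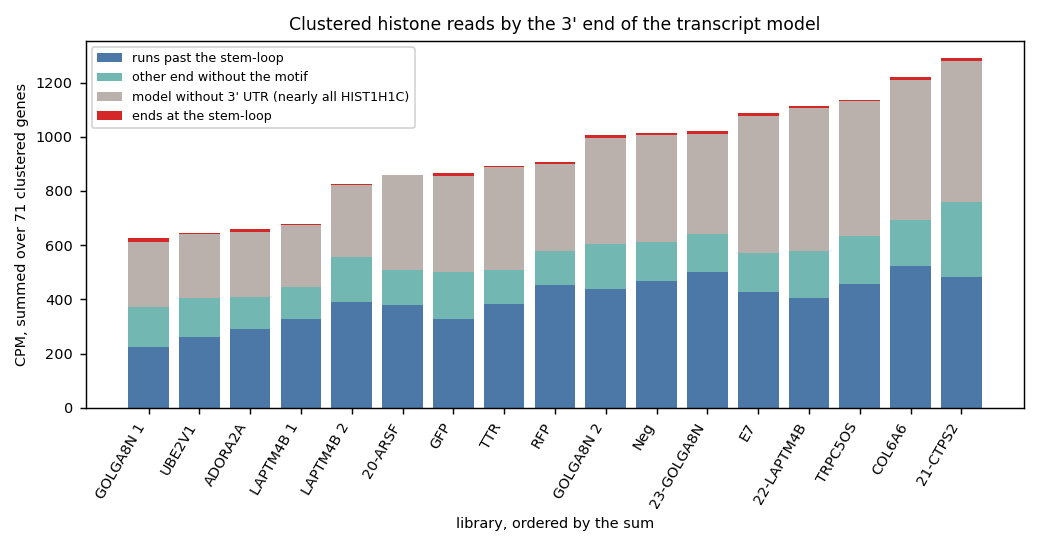
Clustered histone level per library, in CPM summed over the 71 genes, split by the 3′ end of the transcript model and ordered by the sum from GOLGA8N 1 (628 CPM) to 21-CTPS2 (1290 CPM). The models that run past the stem-loop held 35.9% to 49.8% of each bar, and those that end at it at most 2.47%.

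The models of HIST1H1C and HIST1H4C hold no poly(A) signal in their last 50 bases, and their last 30 bases are shown with the longest run of A in capitals.
HIST1H1C (chr6:26055787-26055816, minus strand, coding sequence up to the stop codon): cctaagaaggcggcgcccaagaagAAAtag
HIST1H4C (chr6:26104281-26104310, plus strand): tgagaacttcaaaaaacaaaaacAAAAAAA
The HIST1H1C model ends at its stop codon, so no 3′ UTR is in the model, and its longest run of A anywhere is 6 bases. The HIST1H4C model ends in 7 A, with 21 A in its last 30 bases. The models of HIST1H2BG and HIST1H2AE also hold no poly(A) signal in their last 50 bases, and that of HIST1H2BG ends in 30 A. Runs of A reached 17 bases in the most read model of H3F3A and 13 in that of H3F3B. Whether oligo-dT primed on such runs was not tested.

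HIST1H1C encodes H1.2, a linker histone that binds DNA between nucleosomes (chr6:26055787-26056428, minus strand). It was at 219 CPM in the lowest library, 358 in the median library and 514 in the highest. LAPTM4B 1, GOLGA8N 1, UBE2V1, ADORA2A and LAPTM4B 2 lay between 219 and 253 CPM, and no library lay between 253 and 312. TRPC5OS, E7, 22-LAPTM4B, COL6A6 and 21-CTPS2 lay between 471 and 514 CPM. Libraries of 1 label fell on both sides of the gap: the LAPTM4B libraries stood at 219, 253 and 503 CPM and the GOLGA8N libraries at 221, 358 and 380. The 3 reference libraries stood at 312, 345 and 379 CPM. Over the 16 libraries without GFP its coefficient of variation was 31.0%, against 13.05% for H2AFV and 12.1% for H3F3B, replacement genes with like read counts. The other 5 clustered H1 genes held few reads, and 2 of them had none.

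The H2A genes HIST2H2AA3 and HIST2H2AA4 lie on opposite strands of chromosome 1 (chr1:149842188-149842736 and chr1:149851061-149851624) and are near-identical copies. The 549 bases of HIST2H2AA3-201 are contained without a difference in the 564 bases of HIST2H2AA4-201. The deposited estimates gave HIST2H2AA3 reads in 17 libraries and HIST2H2AA4 in 4, GFP, LAPTM4B 2, E7 and UBE2V1. In those 4 libraries HIST2H2AA4 was listed at 24.2, 48.5, 72.7 and 121.2 reads. These are 1, 2, 3 and 5 times 24.2, to within 0.001 of a whole multiple, and 24.2 is the deposited effective length of HIST2H2AA4 (363.568 bases) divided by its difference from that of HIST2H2AA3 (348.569 bases). How the reads divide between the 2 genes is therefore uncertain, including where a value of HIST2H2AA3 alone is plotted. Their sum was 73.3 CPM in GOLGA8N 1, the lowest library, 159 in the median library and 218 in COL6A6, the highest.

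The other pairs of copies showed the same uncertainty. HIST2H3A and HIST2H3C, H3 genes with identical models of 1656 bases, were given equal reads in 17 of 17 libraries (within 0.01 read), 78.9 each in all. The H4 genes HIST2H4A and HIST2H4B share the last 499 bases of their leading models. HIST2H4A ran from 0 CPM in TRPC5OS to 38.2 in GFP, and HIST2H4B from 0 in LAPTM4B 1 and GFP to 31.3 in TRPC5OS, so the copy that was high in 1 library was listed at 0 in another. Their sum ranged from 12.5 CPM in GOLGA8N 1 to 39.2 in LAPTM4B 2, 3.1-fold. HIST1H4J and HIST1H4K, also H4 genes, were listed at 20.58 and 15.42 reads in 23-GOLGA8N and at 6.86 and 23.14 in 20-ARSF. In both libraries the fractions of these genes complete a whole read, so how reads divide between them is uncertain too.

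**Figure D3:**
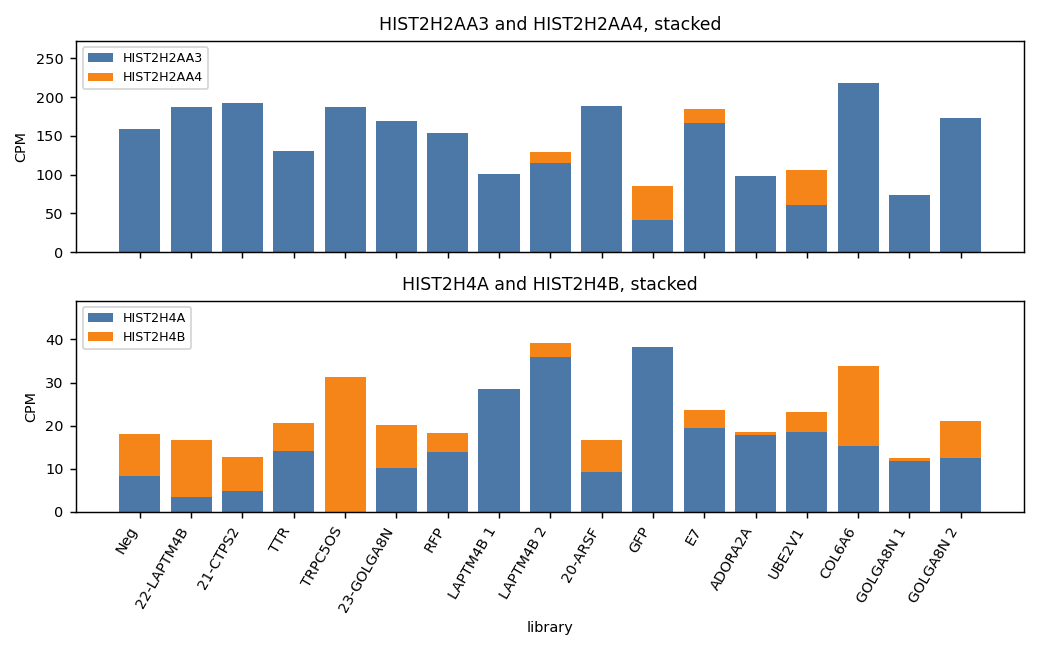
Level in CPM of 2 pairs of histone genes with shared sequence in each of the 17 libraries, stacked. HIST2H2AA4 appears in LAPTM4B 2, GFP, E7 and UBE2V1, while HIST2H4A is at 0 in TRPC5OS and HIST2H4B at 0 in LAPTM4B 1 and GFP.

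The remaining clustered genes at 10 CPM or more were core histone genes at moderate levels. Among H2A genes, HIST1H2AC ran from 18.7 CPM in LAPTM4B 1 to 66.0 in E7, HIST1H2AG from 5.48 in UBE2V1 to 45.3 in GFP, HIST3H2A from 7.75 in GOLGA8N 1 to 26.9 in 23-GOLGA8N, and HIST1H2AE from 7.27 in GFP to 28.6 in LAPTM4B 2. Among H2B genes, HIST1H2BJ had a median of 58.9 CPM over the 16 libraries, with 38.5 in UBE2V1 and 98.5 in LAPTM4B 2. HIST1H2BG, HIST1H2BD, HIST2H2BE and HIST1H2BN had medians between 19.7 and 20.6 CPM. HIST1H3H was the only 1 of 15 clustered H3 genes at 10 CPM or more, from 16.7 CPM in UBE2V1 to 55.8 in GOLGA8N 2. Among H4 genes, HIST1H4H ran from 16.7 CPM in ADORA2A to 63.9 in 23-GOLGA8N, and HIST1H4E from 0 in GFP to 22.7 in LAPTM4B 1. HIST1H2BD, HIST1H2BN and HIST2H4A overlap genes on the opposite strand, and no source used here gives the strand setting of the counting, so their reads are uncertain. HIST1H2BD and HIST1H2BN each also overlap 1 gene on their own strand, which no strand setting separates.

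The replacement genes with 10 CPM or more had lower coefficients of variation than most clustered genes. H3F3A and H3F3B, which encode the same H3.3 protein, stood at 565 ± 77.98 and 330 ± 39.9 CPM (SD, n = 16, without GFP). H2AFZ and H2AFV, which encode the H2A.Z forms found at promoters, stood at 530 ± 87.1 and 399 ± 52.1 CPM, and H2AFY, which encodes macroH2A1, at 171 ± 20.8 (SD, n = 16). H1FX, a linker histone gene outside the clusters, stood at 150 ± 24.0 CPM and H2AFX, whose protein is phosphorylated at DNA breaks, at 49.1 ± 11.9 (SD, n = 16). H2AFX was the only replacement gene with the stem-loop motif, and its leading model runs 1044 bases past it. Over these 7 genes the coefficient of variation ranged from 12.1% to 24.1%, and over the 16 clustered genes from 24.5% to 153%, though most clustered genes had fewer reads. H3F3A, H2AFZ, H3F3B, H2AFY and H1FX overlap genes on the opposite strand and share the uncertainty above. H3F3B also overlaps 1 gene on its own strand.

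Several members were high in 1 or 2 libraries. HIST1H4C, an H4 gene, had 465 reads in 21-CTPS2, or 169 CPM (95% exact binomial interval 154 to 185, which covers counting error only), against 4.02 to 40.0 CPM in the other 16 libraries. In GFP, the shallowest library, H2AFX had 85 reads or 155 CPM (interval 123 to 191), against 28.9 to 78.8 CPM elsewhere. GFP also held the highest H1FX, 235 CPM (interval 196 to 279), and the highest H1F0, a linker histone gene linked to differentiation, at 25.5 CPM from 14 reads (interval 13.9 to 42.7) against at most 5.48 elsewhere. HIST1H4I reached 15.3 CPM in COL6A6 from 38 reads (interval 10.8 to 21.0) and 14.3 CPM in TRPC5OS, against a median of 3.79. Each of these labels has 1 library, so the value has no replicate check.

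The study's main comparison sets GOLGA8N plasmids against reference plasmids, since the series title links GOLGA8 genes to uptake of antisense oligonucleotides. No histone gene passed the test. edgeR's quasi-likelihood test called 0 of 33 tested members (25 clustered, 8 replacement) at an adjusted p under 0.05, where it called 0.0168% of all 11916 genes; the lowest adjusted p of a member was 0.847, and DESeq2 and limma-voom also called 0 members. At an unadjusted p under 0.05 stood 2 members, H1FX and H2AFX, beside 5.66% of all genes. The 3 members with the lowest p were all replacement genes.

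H1FX was at 118, 127 and 131 CPM in the GOLGA8N libraries and at 160, 185 and 235 CPM in RFP, Neg and GFP. All GOLGA8N libraries lay below all reference libraries, and the log2 fold change was -0.46 ± 0.19 (SE; edgeR adjusted p = 0.847) with GFP and -0.32 without it. H2AFX was at 43.8, 49.2 and 56.5 CPM in GOLGA8N against 58.0, 78.8 and 155 in Neg, RFP and GFP. The groups did not overlap, and the log2 fold change was -0.76 ± 0.33 (SE; edgeR adjusted p = 0.847) with GFP and -0.33 without it. H2AFV was at 336, 446 and 476 CPM in GOLGA8N against 273, 396 and 406 in the reference group, which overlap, with a log2 fold change of 0.36 ± 0.18 (SE; edgeR adjusted p = 0.890) that fell to 0.20 without GFP. Of the 33 members, 2 lay wholly above the reference group (HIST1H2AM and HIST1H4J) and 4 wholly below (H1FX, H2AFX, H2AFZ and HIST1H2AG), beside 3.79% and 8.03% of all genes. For H2AFZ this order holds in CPM alone: after edgeR's TMM scaling its log2 fold change was 0.08. The median log2 fold change was 0.15 over the members and 0.01 over all genes, with 21 members higher and 12 lower, beside 50.6% of all genes higher. This lean depended on single libraries. With 1 library left out, the member median ran from -0.05 without 23-GOLGA8N (17 higher, 19 lower) to 0.175 without GOLGA8N 1 (23 higher, 15 lower). Without GFP it was 0.01 (18 higher, 17 lower). HIST1H1C differed by 0.04 ± 0.28 on the log2 scale (SE; edgeR adjusted p = 0.999).

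For LAPTM4B plasmids, which target a lysosomal membrane protein gene, against the same reference libraries, edgeR called 0 of 33 members and 0.0% of all 11916 genes, and DESeq2 and limma-voom called 0 members. At an unadjusted p under 0.05 stood 1 member, H2AFX, beside 3.94% of all genes. H2AFX was at 28.9, 43.8 and 50.9 CPM in the LAPTM4B libraries, below the 58.0 to 155 CPM of the reference libraries, with a log2 fold change of -1.04 ± 0.33 (SE; edgeR adjusted p = 0.999) that fell to -0.61 without GFP. HIST1H2AG was at 12.3, 12.9 and 18.4 CPM against 23.3, 26.4 and 45.3, with a log2 fold change of -0.92 ± 0.45 (SE; edgeR adjusted p = 0.999). H2AFV overlapped between the groups, with a log2 fold change of 0.34 ± 0.18 (SE; edgeR adjusted p = 0.999) that fell to 0.18 without GFP. No member lay wholly above the reference group, beside 3.68% of all genes, and 5 lay wholly below (H1FX, H2AFX, HIST1H2AG, HIST1H2BC and HIST1H3H), beside 6.45%. Both comparisons share the reference libraries, so the members low in both are not seen independently. The lower H1FX, H2AFX and HIST1H2AG also stood beside the highest values of all 3 genes in GFP. In the edgeR refits without GFP, 0 members stood at an unadjusted p under 0.05 in either comparison. The part of GFP beyond these values was not tested.

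Between GOLGA8N and LAPTM4B plasmids, edgeR called 0 of 33 members, beside 0.00839% of all 11916 genes, and no member stood at an unadjusted p under 0.05, beside 2.04% of all genes. HIST1H3H was at 20.4, 38.2 and 55.8 CPM in GOLGA8N and 17.5, 25.5 and 29.5 in LAPTM4B, which overlap, with a log2 fold change of 0.67 ± 0.38 (SE; edgeR adjusted p = 1.0) and 0.28 without GOLGA8N 2. HIST1H4J was at 9.46, 11.5 and 15.5 CPM against 0.573, 5.18 and 7.23, with no overlap and a log2 fold change of 1.48 ± 0.92 (SE; edgeR adjusted p = 1.0), or 0.97 without LAPTM4B 2. HIST1H2AE was at 9.07, 10.7 and 11.0 CPM against 12.7, 14.8 and 28.6, also without overlap, at -0.84 ± 0.53 (SE; edgeR adjusted p = 1.0), or -0.42 without LAPTM4B 2. In all, 2 members lay wholly above (HIST1H4J and HIST3H2BB) and 2 wholly below (H1FX and HIST1H2AE), beside 3.93% and 4.42% of all genes. HIST1H4K, which may share reads with HIST1H4J, was at 7.09 CPM in 23-GOLGA8N and 0 in the other libraries of both groups.

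The prefixed against unprefixed labels gave the most members at a low unadjusted p. edgeR called 0 of 35 tested members (27 clustered, 8 replacement), beside 0.284% of all 12319 genes, and 7 members stood at an unadjusted p under 0.05, beside 9.36% of all genes. HIST1H2BN was at 23.4, 28.2, 30.6 and 38.2 CPM in the prefixed libraries and between 9.65 and 25.4 CPM, median 17.8, in the unprefixed ones. Only 20-ARSF lay inside the unprefixed range, and the log2 fold change was 0.83 ± 0.27 (SE; edgeR adjusted p = 0.245). H2AFZ was at 351, 459, 461 and 504 CPM against 362 to 669, median 556, which overlap, at -0.32 ± 0.12 (SE; edgeR adjusted p = 0.372). It fell to -0.20 without 21-CTPS2. HIST2H4A was at 3.56, 4.78, 9.34 and 10.2 CPM against 0 to 38.2, median 15.4, at -1.34 ± 0.56 (SE; edgeR adjusted p = 0.439). The sum of HIST2H4A and HIST2H4B gave -0.56 (edgeR adjusted p = 0.546). HIST1H4C, HIST1H2BJ, H3F3A and HIST2H2BE were the other 4, at adjusted p between 0.453 and 0.522. The log2 fold change of HIST1H4C, 1.56 ± 0.65 (SE; edgeR adjusted p = 0.453), rested on the 169 CPM of 21-CTPS2. The other 3 prefixed libraries stood at 11.6, 15.2 and 17.9 CPM, inside the unprefixed range, and without 21-CTPS2 the log2 fold change turned to -0.235. No member's groups were free of overlap, beside 0.203% of all genes higher and 0.154% lower. The median log2 fold change was 0.20 over the clustered members, with 17 of 27 higher, and -0.18 over the replacement members, with 7 of 8 lower. Over all genes it was -0.02, with 47.8% of them higher. The prefix splits labels as well as libraries: 20-ARSF and 21-CTPS2 have no unprefixed counterpart, so plasmid and prefix cannot be told apart for them.

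**Figure D4:**
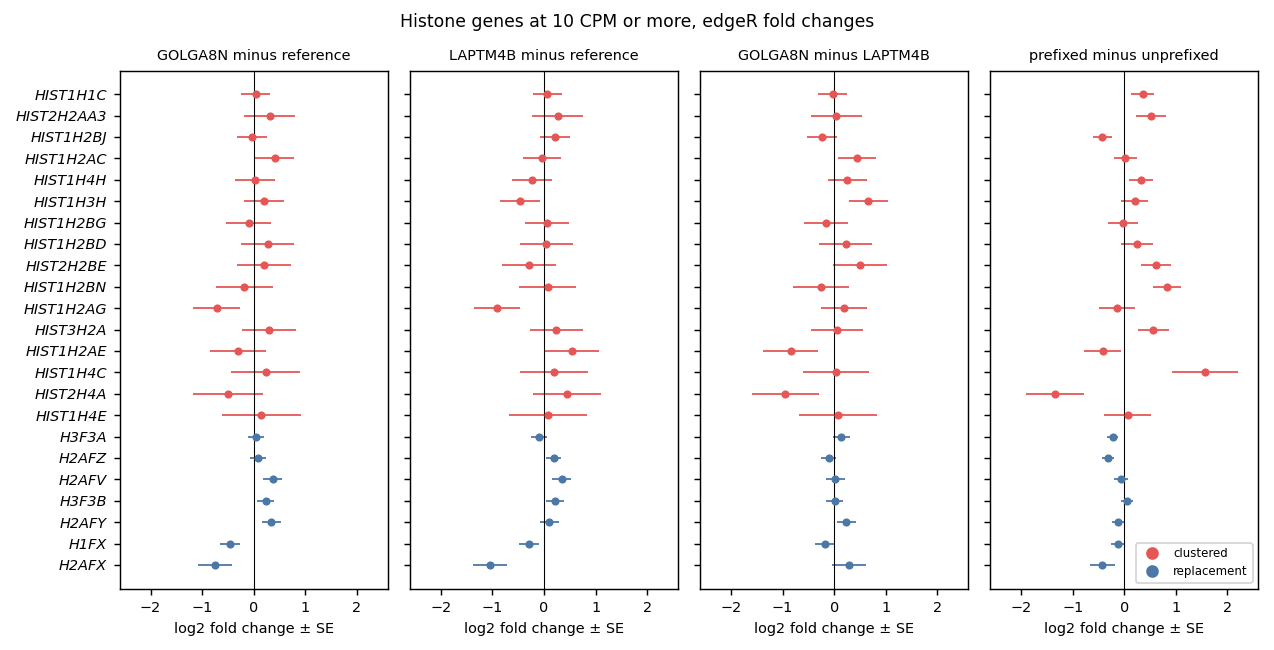
Log2 fold change with its SE (edgeR) for the 23 histone genes at 10 CPM or more in each of the 4 comparisons. None of the genes passed an adjusted p of 0.05, and the largest fold changes are H2AFX at -1.04 in LAPTM4B minus reference and HIST2H4A at -1.34 and HIST1H4C at 1.56 in prefixed minus unprefixed, the last of which turns to -0.235 without 21-CTPS2.

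Genes of the histone mRNA and chromatin assembly pathways did not pass the test in any of the 4 comparisons. In GOLGA8N minus reference, 0 of 26 tested genes of histone mRNA 3′ end processing and decay, 0 of 33 histone chaperone genes, 0 of 21 cleavage and polyadenylation genes and 0 of 36 S-phase genes were called. The medians were 0.17, 0.00, -0.05 and 0.00 on the log2 scale. CPSF3, the endonuclease that cuts both histone and polyadenylated precursors, was at 73.6 ± 12.9 CPM in GOLGA8N against 47.7 ± 8.68 in the reference group (SD, n = 3 each; edgeR adjusted p = 0.773). CLSPN, a replication checkpoint gene, was at 18.3 ± 5.60 against 48.7 ± 22.6 CPM (SD, n = 3 each; edgeR adjusted p = 0.739). In prefixed minus unprefixed, SLBP, whose protein binds the stem-loop, had a mean of 19.2 ± 4.94 CPM (SD, n = 4) in the prefixed libraries and 30.5 ± 6.43 in the others (SD, n = 13), a log2 fold change of -0.64 ± 0.25 (SE; edgeR adjusted p = 0.370). HJURP, the chaperone of the centromeric H3 variant, was at 53.2 ± 8.11 against 29.7 ± 10.6 CPM, at 0.81 ± 0.24 (SE; edgeR adjusted p = 0.193). The S-phase list had 9 genes higher and 28 lower there, with a median of -0.20 against -0.02 over all genes.

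Across libraries the clustered sum correlated weakly with the S-phase genes. HIST1H1C varied together with the sum of the other clustered genes, but many genes outside the family were more like it than any single member. These correlations are descriptions over 17 libraries that share their scaling and depth. The clustered sum correlated with the S-phase sum at Pearson r -0.13 (Spearman rho -0.152). The replacement sum correlated with the S-phase sum at r 0.692 (rho 0.765), and at 0.469 (rho 0.675) without the 2 libraries farthest from the median S-phase sum. HIST1H1C correlated with the summed other clustered genes at r 0.85 (rho 0.841), at 0.86 within the 13 unprefixed libraries and at 0.804 without its 2 farthest libraries. With the HIST2H2AA3 and HIST2H2AA4 sum it correlated at r 0.82 (rho 0.826), and at 0.896 without GFP. With depth its r was -0.0771. Among the 16 clustered genes at 10 CPM or more, 82 of 120 pairs correlated positively over the 16 libraries without GFP, with a median r of 0.244.

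Of the 7082 other genes with a median of at least 10 CPM, those most like HIST1H1C over the 17 libraries, by Pearson r of log2(CPM + 1), were ALDOA (0.951), EGFL7 (0.911), LDHA (0.909), PGK1 (0.84) and ANXA1 (0.839). ALDOA, LDHA and PGK1 encode glycolytic enzymes, EGFL7 a secreted protein and ANXA1 an annexin. Without GFP, ALDOA stood at 0.954. Within the 13 unprefixed libraries the r of HIST1H1C was 0.944 with ALDOA and 0.93 with LDHA. The single member most like HIST1H1C was HIST2H2AA3, at 0.676 and rank 102, or at 0.873 and rank 4 without GFP. HIST1H4H followed over the 17 libraries at 0.627 and rank 156, while HIST1H2BJ stood at 0.159 and HIST1H4C at -0.151. Among the members, the most negative coefficients with HIST1H1C were those of H2AFZ (-0.603), H2AFY (-0.586), HIST2H4A (-0.529) and H2AFV (-0.502), 3 replacement genes and 1 clustered gene, while the replacement gene H1FX was positive at 0.454.

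**Figure D5:**
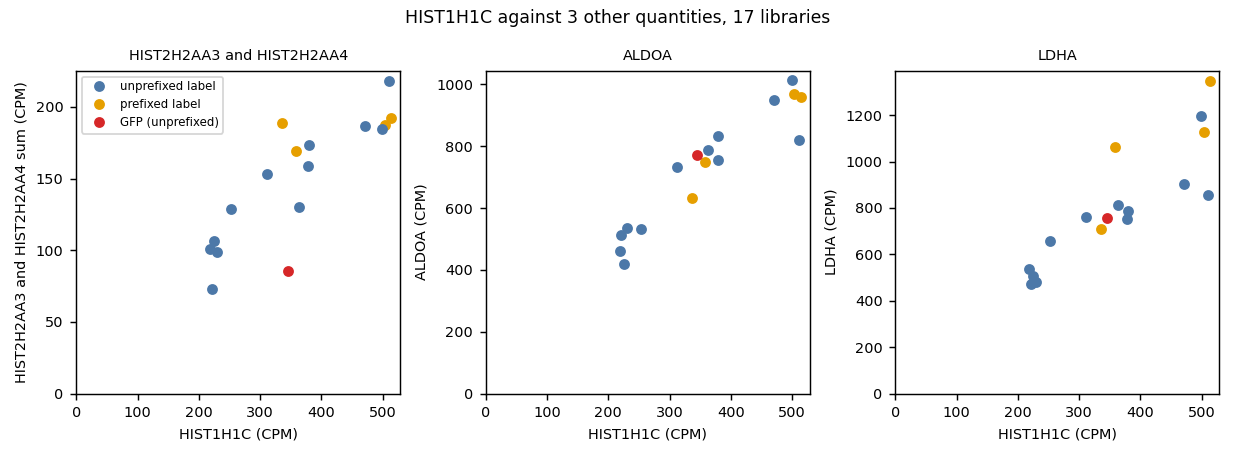
HIST1H1C level (x axis, CPM) against the sum of HIST2H2AA3 and HIST2H2AA4, ALDOA and LDHA (y axes, CPM), with 1 point per library. The 5 libraries between 219 and 253 CPM of HIST1H1C also hold the 5 lowest ALDOA and the 5 lowest LDHA values, and GFP has an H2A sum of 85.5 CPM, the second lowest.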

How the data were processed

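RNA was measured in 17 K562 libraries by 3′ tag sequencing with oligo-dT primers carrying molecular identifiers, per the labels' protocols. Each deposited file lists 228297 transcripts with estimated (expected) counts, effective lengths and TPM in the layout of Salmon, per the file headers. Tools named in the submitters' processing notes are Salmon (0.7.2), STAR (given the same version), UMI-tools and featureCounts, with GRCh38 and hg38 as builds. Whether reads with the same identifier were collapsed, and the strand setting, are not given in the sources used here.

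Gene sums of the deposited estimated counts used GENCODE 29 on GRCh38 and the 205336 transcripts that matched by identifier. They held 96.4% to 96.7% of the reads. CPM were computed here from reads in genes, and TPM are the deposited values summed per gene. Gene sums were rounded for tests. Genes were tested across all genes with edgeR 4.0.16 in R 4.3.3 (TMM, filterByExpr, robust quasi-likelihood fit, Benjamini-Hochberg adjustment, threshold 0.05). The 3 comparisons of the GOLGA8N, LAPTM4B and reference groups came from 1 fit of 9 libraries, and the comparison by prefix from a fit of 17. Only 33 and 35 members passed the filter on low counts. A standard error is the log2 fold change divided by the square root of F. On simulated counts for GOLGA8N against reference (11916 genes) the fit recovered 5 of 50 genes changed 2-fold and 24 of 50 changed 4-fold. For the prefix comparison (12319 genes) it recovered 16 and 30 of 50.

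Members described are those with a median of at least 10 CPM without GFP, the 3 with the lowest p in each comparison, and the 4 of each class with the largest ratio of highest to median library (pseudocount 1 CPM) among those reaching 10 CPM. From each pathway list up to 2 with the lowest p were eligible. Members and lists were chosen with earlier results of these data known. Of 28 genes in the histone mRNA processing list, 27 were found by symbol. Alternatives were DESeq2 1.42.0, limma-voom (limma 3.58.1), other size factors, no filter, summed copies, other sets of libraries, other denominators and other windows for the stem-loop.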

Additional observations from a re-analysis of the deposited data

Results flagged for a closer look

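Each of 33 quantities was examined in the 4 prefixed libraries for a library far from the other 3 (Dixon's ratio of gap to range above its 95% critical value); chance marks about 1 in 20 such groups, and 3 were found. HIST1H2AG was lowest in 20-ARSF, at 11.5 CPM from 47 reads, against 18.4 to 18.8 in the other 3 prefixed libraries. The unprefixed libraries UBE2V1 (5.48 CPM) and E7 (8.43 CPM) lay lower still. HIST1H4C was highest in 21-CTPS2, at 169 CPM, against 11.6 to 17.9. H1FX was highest in 21-CTPS2, at 173 CPM, against 127 to 135. Unprefixed libraries reached higher values, among them 235 CPM in GFP and 192 CPM in TRPC5OS. The 4 libraries carry 4 different plasmid labels.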

How the results depend on the processing

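No histone gene was called under any alternative in the 3 comparisons of plasmid groups. In the comparison by prefix 1 was called with no filter, HIST2H4A (edgeR adjusted p = 0.0498), whose adjusted p ranged up to 0.737 over its other alternatives. Leaving out in turn each library of the 2 groups compared, or for the prefix each of the 4 prefixed libraries and GFP, called 0 histone genes. The other 12 unprefixed libraries were not left out one by one. The 12 fold changes followed, the 3 with the lowest p in each comparison, kept their direction in all 156 refits. They were chosen from the same data and the refits share libraries with the main fits, so this is no independent check. HIST1H4C, which is not one of them, went from 1.56 in prefixed minus unprefixed to -0.235 without 21-CTPS2. The mean clustered level was 1540 CPM and the replacement level 3650 CPM when mitochondrially encoded and ribosomal protein genes were left out of the denominator. The share of clustered reads in models that end at a stem-loop was 17.7% with a window of 50 bases, which takes in HIST2H2AA3, and 0.0% with 3 bases. With the replicate block on the libraries titled 1 and 2, edgeR called 0 histone genes and 2 genes in all between GOLGA8N and LAPTM4B, as without the block. The deviations of the libraries numbered 1 correlated at 0.141 over 10878 genes, but with 2 pairs the numbers were not taken to pair the libraries.

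Counts over all genes moved more. For GOLGA8N minus reference edgeR called 2 genes, 42 with no filter, 7 with unprefixed libraries only, 19 with all 17 libraries in the fit and 1 to 5 with a library left out, while DESeq2 called 14 and limma-voom 0. For LAPTM4B minus reference it called 0, 25, 2, 4 and 0 to 1 in that order, and DESeq2 1. For GOLGA8N minus LAPTM4B it called 1, 9, 2, 4 and 1 to 3, DESeq2 2 and limma-voom 0. For prefixed minus unprefixed it called 35 genes and 559 with no filter, DESeq2 called 124, limma-voom 55, and the GOLGA8N and LAPTM4B libraries with the plasmid gene as a term gave 73. Without 22-LAPTM4B it called 2 genes, without 23-GOLGA8N 7, without 21-CTPS2 11 and without 20-ARSF 29. In GFP, 3 reads are 5.46 CPM, so a member near 10 CPM rests there on few reads, and intervals cover counting error only.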
